A study of Cricetulus griseus with 4 samples.

Results

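CTSO, CTSZ, LGMN, MMP14, MMP15 and ECE1 encode proteases of the lysosome and of the cell membrane, and each lies on 1 probe of the array that carries a single gene symbol. The 6 probes were found by symbol among 350 probes with 1 symbol (347 genes) and 1152 probes in all. The genes were chosen partly on their centred log2 ratios between the clone pools, which were already known, so those ratios are given here as a description, with standard errors and no p-values. All 6 symbols also belong to Chinese hamster genes in the RefSeq annotation of assembly CriGri-PICRH-1.0, the species of the RNA, while the probes are annotated with human genes.

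The arrays compare RNA of RT210B, a chromosomally stable clone, with RNA of pooled unstable clones of the same origin. Unstable mixture 1 holds equal amounts of the unstable clone LS12 and a second unstable clone, unstable mixture 2 holds equal amounts of Fe10-3 and another unstable clone, and each mixture was set against RT210B on 2 two-channel arrays. The stable side is therefore a single clone on all 4 arrays, and a value of a mixture is the joint value of 2 clones that cannot be separated. The labels name no further treatment or genotype, and nothing in them says that the replicates are separate cultures, so the errors may be technical. Each value is a log2 ratio between the channels, averaged over the 2 spots of a probe and centred on the median probe of its array, called the middle below. The labels do not settle which pool is the numerator, so a gene is placed on the positive or the negative side of the middle, and no pool is named as the higher one. In RNA of whole cultures, a larger share of cells with a transcript and more transcript per cell cannot be told apart.

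Lysosomal cysteine proteases are made as inactive precursors and are activated in the acidic lumen of the lysosome, where they break down proteins delivered by endocytosis and autophagy. Membrane-type metalloproteinases are zinc enzymes anchored at the cell surface, where they cut collagen and other matrix proteins and activate secreted metalloproteinases. Endothelin-converting enzyme is a zinc enzyme of the neprilysin family, found at the cell surface and in endosomes.

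The 5 genes CTSO, CTSZ, LGMN, MMP14 and MMP15 lay on the negative side on both arrays of mixture 1, and ECE1 lay on the positive side on all 4 arrays. In mixture 1 the negative genes ran from a log2 of -1.92 for CTSO to -0.89 for MMP14, and ECE1 lay at 1.42. In mixture 2 the same 5 genes lay closer to the middle, between -0.48 and -0.07, and ECE1 lay at 0.87. Without centring, the 5 genes ran from -2.09 to -1.06 in mixture 1 and from -0.97 to -0.56 in mixture 2, and ECE1 lay at 1.25 and 0.38. The median of the 6 genes was -1.28 in mixture 1 and -0.19 in mixture 2, beside medians of -0.03 and -0.003 over all 1152 probes. Both mixtures were measured against the same clone RT210B, so a shared side is not a second, separate observation.

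**Figure D1:**
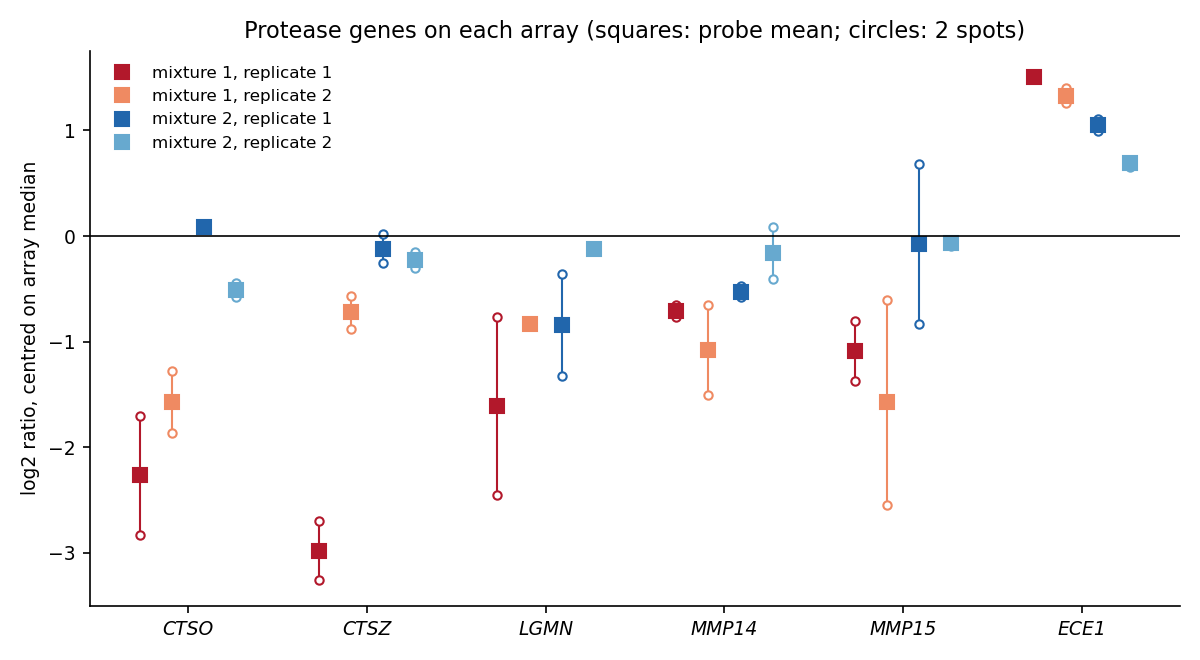
Centred log2 ratio (vertical axis) of the 6 protease genes (horizontal axis) on each of the 4 arrays; squares are probe means, open circles the 2 spots of the probe, and the line at 0 is the array's middle probe. The red and orange squares of mixture 1 lie below 0 for every gene except ECE1, and the blue squares of mixture 2 lie closer to 0, except that 1 of LGMN (-0.84) is level with a mixture 1 array (-0.83).

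CTSO encodes cathepsin O, a cysteine protease of the papain family. In mixture 1 its arrays read -2.27 and -1.57, and in mixture 2 they read 0.09 and -0.51. Both mixture 1 arrays were low, and the mixtures did not overlap. The mean of mixture 1 was -1.92 (SE 0.323, n = 2 arrays), or 3.79-fold from the middle, and that of mixture 2 was -0.21 (SE 0.323). These SEs and those below come from limma, which uses 1 spread per gene, shared by both mixtures and drawn towards that of all probes. They therefore do not show the scatter of either mixture alone. Ranked over all probes, CTSO was the 28th most negative value in mixture 1 and the 432nd in mixture 2.

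CTSZ encodes cathepsin Z, also called cathepsin X, a papain family enzyme that removes single amino acids from the carboxyl end of proteins. Its values were -2.98 and -0.72 in mixture 1, and -0.12 and -0.22 in mixture 2. On the first of these arrays 0.434% of probes lay below CTSZ, and on the other array of mixture 1 25.4% did. The mean in mixture 1 was -1.85 (SE 0.476), with an SD of 1.595 over the 2 arrays, the widest of the 6 genes, and in mixture 2 it was -0.17 (SE 0.476). Without replicate 1 of mixture 1 the value of CTSZ was -0.72, and without replicate 2 it was -2.98.

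LGMN encodes legumain, an asparagine-specific endopeptidase that also processes several cathepsins. It lay at -1.61 and -0.83 in mixture 1 and at -0.84 and -0.12 in mixture 2. The higher array of mixture 1 and the lower array of mixture 2 were at nearly the same level, so LGMN was the 1 gene of the 6 whose mixtures overlapped; over all probes, 62.2% had mixtures that did not. Its means were -1.22 (SE 0.335) and -0.48 (SE 0.335), the latter being the most negative of the 6 genes in mixture 2.

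MMP14 encodes the first described membrane-type metalloproteinase, a collagenase that activates pro-MMP2. Its values were -0.71 and -1.08 in mixture 1 and -0.53 and -0.16 in mixture 2. All 4 were below the middle, and the nearest arrays of the mixtures, at -0.71 and -0.53, lay closer together than either pair of replicates. The mean was -0.89 (SE 0.296) in mixture 1 and -0.34 (SE 0.296) in mixture 2, and 20.2% and 30.8% of probes lay below it.

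MMP15 encodes a further transmembrane member of this group, close to MMP14 in domain structure. It lay at -1.09 and -1.58 in mixture 1 and at -0.08 and -0.07 in mixture 2. Both arrays of mixture 2 were near the middle, and both arrays of mixture 1 were more than 2-fold from it. The means were -1.33 (SE 0.294), or 2.52-fold from the middle, and -0.07 (SE 0.294).

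ECE1 encodes endothelin-converting enzyme, which cuts the inactive precursor big endothelin into the vasoconstrictor endothelin. It lay at 1.50 and 1.33 in mixture 1 and at 1.05 and 0.69 in mixture 2. These were high values on every array: 96.4% and 85.9% of probes lay below ECE1 in mixture 1 and 95.4% and 98.2% in mixture 2. The means were 1.42 (SE 0.291), or 2.67-fold from the middle, and 0.87 (SE 0.291), or 1.83-fold. ECE1 was the 82nd most positive value of mixture 1 and the 11th of mixture 2.

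**Figure D2:**
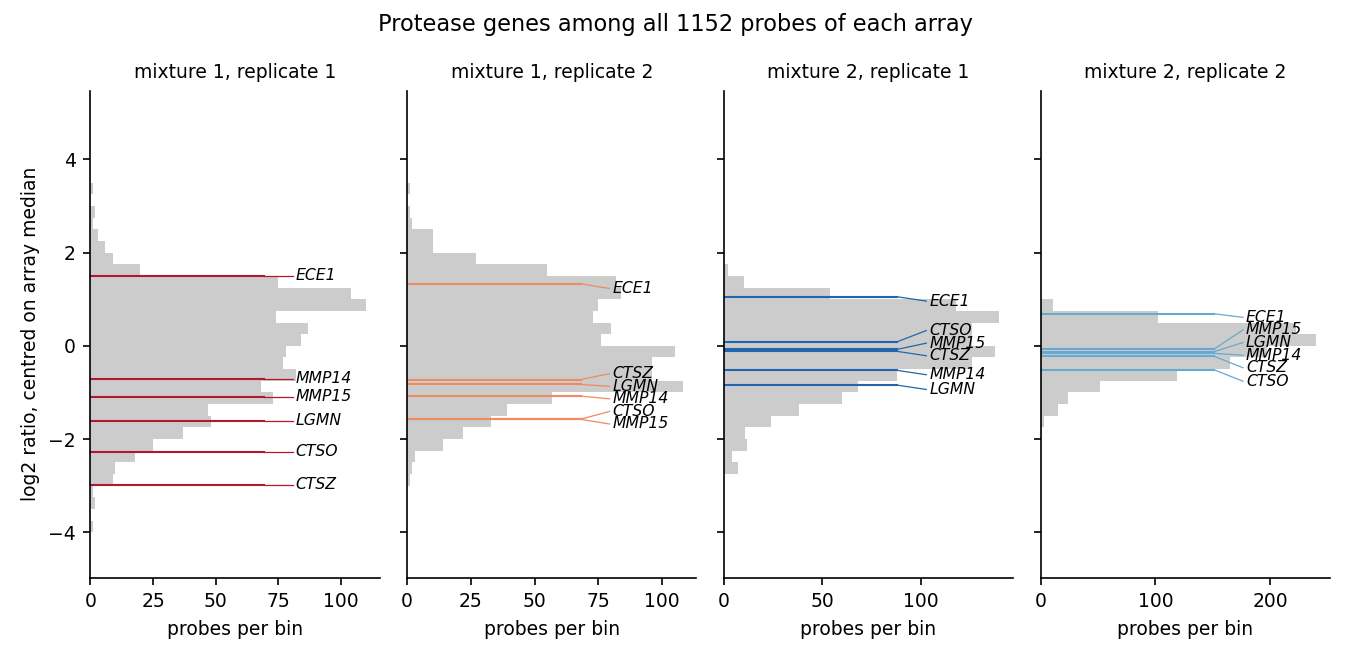
Distribution of the centred log2 ratios (vertical axis) of all 1152 probes on each array (grey bars; horizontal axis, probes per bin), with a coloured line at the value of each of the 6 protease genes. CTSO lies in the lower tail of both mixture 1 arrays, with 3.30% and 5.47% of probes below it, CTSZ in that of 1 of them, and ECE1 in the upper part of all 4 distributions.

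The arrays of mixture 1 had a wider spread over probes (SD 1.14 and 1.05) than those of mixture 2 (0.796 and 0.471), so the same log2 value stands further out in mixture 2. In units of each array's own median absolute deviation, ECE1 lay at 1.16 and 1.10 in mixture 1 and at 1.26 and 1.36 in mixture 2. CTSO lay at -1.74 and -1.30 in mixture 1 and at 0.106 and -1.01 in mixture 2 on this scale, and MMP15 at -0.836 and -1.30 and at -0.091 and -0.135. On this scale CTSO, CTSZ and MMP15 were lower on both arrays of mixture 1 than on either array of mixture 2, while LGMN and MMP14 overlapped between the mixtures and ECE1 was lower in mixture 1. With the arrays scaled to 1 spread, 23.7% of all probes were lower on both arrays of mixture 1.

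The order of the genes in mixture 1, from the most negative, was CTSO, CTSZ, MMP15, LGMN, MMP14 and ECE1. Among the 5 negative genes each neighbour differed from the next by less than the sum of their standard errors, so this order is not resolved. Over the 4 arrays MMP14 and MMP15 were the closest pair of the 6 (Euclidean distance 0.776 on the log2 scale). Next came LGMN and MMP14 (0.988) and the cathepsins CTSO and CTSZ (1.17). The 2 spots of MMP15 differed by 1.015 on average, more than its distance to MMP14, so that pairing is not resolved. ECE1 was farthest from CTSZ (5.15) and closest to MMP14 (3.73).

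Against the values of all probes, a negative side in mixture 1 was common. On both arrays of mixture 1, 38.9% of probes were negative, and 5 of the 6 protease genes were among them. In mixture 2, 36.5% of probes were negative on both arrays, with CTSZ, LGMN, MMP14 and MMP15 among them. These 4 genes were negative on all 4 arrays, as were 19.9% of all probes, and ECE1 was positive on all 4, as were 25.8% of all probes. At least 2-fold from the middle on both arrays of mixture 1 were CTSO and MMP15 on the negative side, where 9.55% of probes were, and ECE1 on the positive side, where 14.1% were. None of the 6 genes was 2-fold from the middle on both arrays of mixture 2, where 1.91% of probes were on the negative side and 0.00% on the positive side.

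In the limma fit across all 1152 probes, with Benjamini-Hochberg adjustment and a limit of 0.05, all 6 genes were among the 43.1% of probes past the limit in mixture 1 (18.8% negative, 24.4% positive). They were also all among the 38.7% past it in the mean of both mixtures (17.0% negative, 21.7% positive). The genes were chosen with these values known, so nothing is read from those counts or from how they move. In mixture 1 the count was 3 of 6 on the first spots alone, where 397 of 1152 probes passed, and 5 of 6 on the second spots alone, where 381 did. With the arrays scaled to 1 spread it was 4 of 6, beside 231 of 1152 probes. Without replicate 1 of mixture 1 the 5 negative genes ran from -1.58 (MMP15) to -0.72 (CTSZ) in that mixture. In the mean of both mixtures CTSO (-1.07), CTSZ (-1.01), LGMN (-0.85), MMP15 (-0.70) and MMP14 (-0.62) were negative and ECE1 was positive (1.14). There the count was 2 of 6 on either spot alone, where 356 and 302 of 1152 probes passed. With the arrays scaled to 1 spread it was 4 of 6, beside 460 of 1152 probes. CTSZ lay at -0.45 in that mean without replicate 1 of mixture 1. In mixture 2, 0.00% of probes passed, with 226 of 1152 at an unadjusted p under 0.05 in limma. Scaling the arrays to 1 spread put 262 probes past the limit in mixture 2, and 1 of the 6 genes, ECE1 (log2 1.18), was among them.

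**Figure D3:**
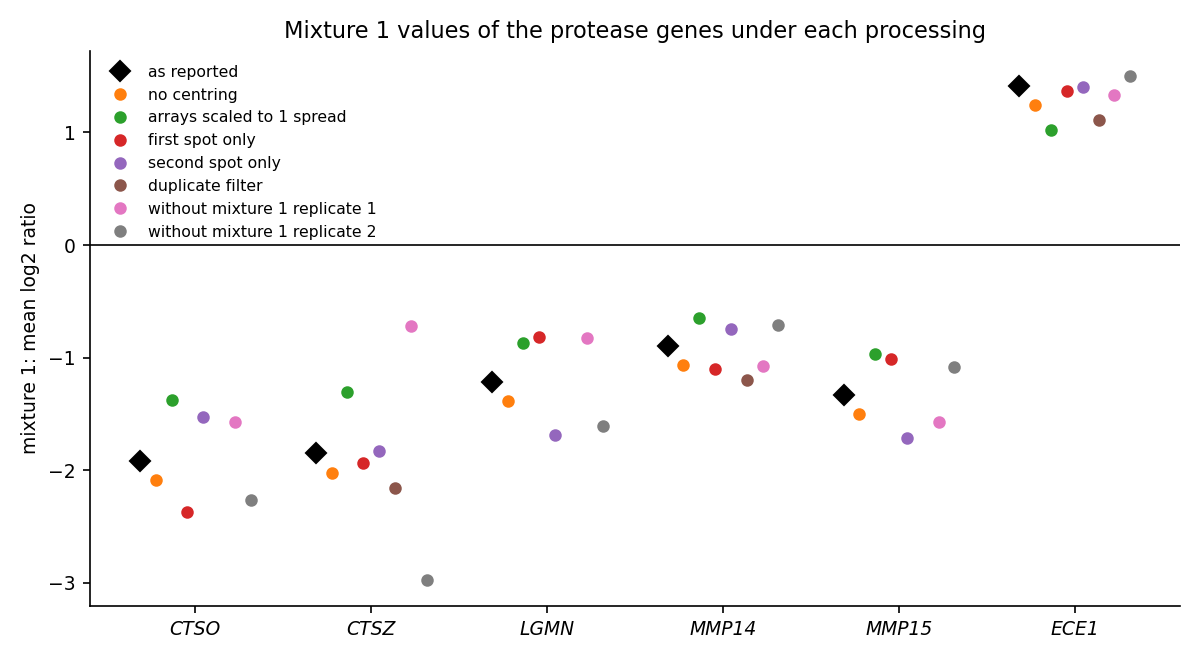
Mean log2 ratio of mixture 1 (vertical axis) for the 6 protease genes (horizontal axis) as reported (black diamonds) and under 7 other ways of processing (coloured points). CTSO, LGMN and MMP15 have no point for the setting that kept only probes with spots within 1 log2 unit on every array. All points shown keep the side of the reported value. CTSZ spans -2.98 to -0.72, the widest range, and ECE1 spans 1.02 to 1.50.

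The 2 spots of a probe show how repeatable a value is within an array. ECE1 had closely agreeing spots, with a mean difference of 0.087 (log2) over the 4 arrays and 0.141 at most; 6.42% of probes had a smaller mean difference. MMP15 had the least agreement, with a mean difference of 1.01, and 93.2% of probes had a smaller one. On replicate 2 of mixture 1 its spots lay at -0.61 and -2.54, and on replicate 1 of mixture 2 at -0.83 and 0.68, on opposite sides of the middle. The second spot alone put MMP15 at 0.23 in mixture 2, against -0.44 for the first spot alone.

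For LGMN the spots differed by 1.69 on replicate 1 of mixture 1 (-0.76 and -2.45) and by 0.97 on replicate 1 of mixture 2, but by 0.021 and 0.009 on the replicate 2 arrays. Its first spot alone gave -0.81 in mixture 1, and its second spot alone gave -1.69. For CTSO the spots of mixture 1 lay at -2.83 and -1.70 on replicate 1 and at -1.87 and -1.28 on replicate 2, all of them well below the middle. CTSZ had spots at -3.26 and -2.70 on replicate 1 of mixture 1 and at -0.57 and -0.88 on replicate 2, so the gap between those arrays was present in both spots. MMP14 had spots at -0.65 and -0.76 on replicate 1 and at -1.50 and -0.66 on replicate 2.

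CTSZ, MMP14 and ECE1 had spots within 1 log2 unit of each other on every array, as did 62.8% of all probes. CTSO, LGMN and MMP15 did not. The part that spot agreement has in the values of these 3 genes was not tested.

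**Figure D4:**
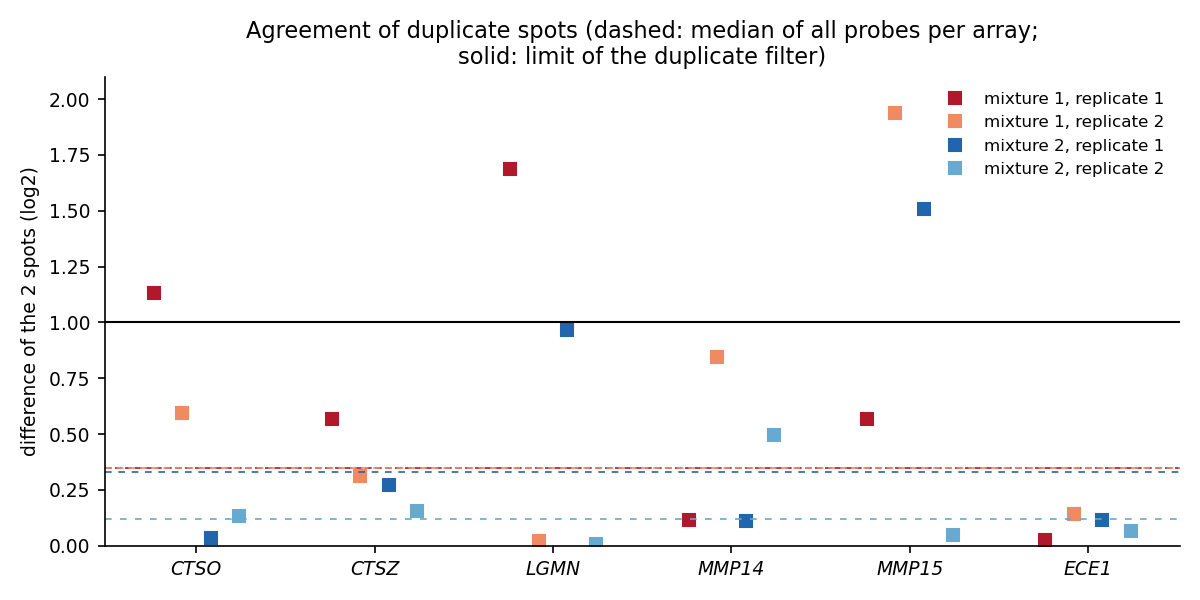
Size of the difference between the 2 spots of a probe (vertical axis, log2) for the 6 protease genes (horizontal axis) on each array; dashed lines are the medians of all probes per array, and the solid line at 1 is the limit used as a filter. ECE1 lies low on all 4 arrays, while LGMN, MMP15 and CTSO each exceed 1 on at least 1 array.

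Between the mixtures, CTSO differed by -1.71 (SE 0.456; mixture 1 minus mixture 2), CTSZ by -1.68 (SE 0.673) and MMP15 by -1.26 (SE 0.416). For LGMN the difference was -0.74 (SE 0.473), for MMP14 -0.55 (SE 0.419) and for ECE1 0.55 (SE 0.411). CTSO, CTSZ, MMP14 and MMP15 were lower on both arrays of mixture 1 than on either array of mixture 2, as were 26.0% of all probes. ECE1 was higher on both, as were 36.2% of all probes, although its difference turned to -0.16 with the arrays scaled to 1 spread. No probe passed in this comparison in limma (0.00%; 275 of 1152 at an unadjusted p under 0.05, smallest adjusted p 0.0732). Without replicate 1 of mixture 1 the CTSZ difference was -0.55, and without replicate 2 it was -2.81, the largest change among the 6 genes. With each of the 4 arrays left out in turn, 1 mixture rests on a lone array. The CTSO difference then ran from -2.05 to -1.36 and that of MMP15 from -1.50 to -1.015. For LGMN it ran from -1.125 to -0.35, for MMP14 from -0.74 to -0.36 and for ECE1 from 0.36 to 0.73.

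Other genes of proteolysis and of the lysosome were taken from lists of protease families, inhibitors and lysosomal proteins. Of these, 11 genes had a probe with 1 symbol, and 404 were not measured under their own symbol here. In mixture 1, 3 of the 11 passed in limma on the positive side and 0 on the negative side, where 24.4% and 18.8% of all probes did. Their median was 0.40 in mixture 1 and -0.23 in mixture 2.

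ATP6V1A and ATP6V1C1 encode subunits of the vacuolar proton pump, which acidifies the lysosome. ATP6V1A lay at 1.24 and 1.20 in mixture 1 and at 0.61 and 0.64 in mixture 2. ATP6V1C1 lay at 1.24 and 1.52 in mixture 1 and at 0.73 and 0.52 in mixture 2. Both were positive on all 4 arrays, the side of ECE1, as were 25.8% of all probes. On both arrays of mixture 1 that side, shared by 38.9% of all probes, was opposite to CTSO, CTSZ and LGMN. It was not opposite to the mean of the cathepsin CTSF. The spots of ATP6V1A and ATP6V1C1 agreed closely (mean difference 0.054 and 0.046). In mixture 1 their means were 1.22 (SE 0.283) and 1.38 (SE 0.289), with limma adjusted p-values of 0.0115 and 0.00902, and in the mean of both mixtures 0.92 and 1.01 (limma adjusted p 0.0108 and 0.0106). With the arrays scaled to 1 spread ATP6V1A did not pass in mixture 1. In mixture 2, where no probe passed, their limma adjusted p-values were 0.256 and 0.259.

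HYAL3, of the hyaluronidase family, was the third gene that passed in mixture 1 (log2 1.95, SE 0.394, limma adjusted p 0.00887). Its 2 spots agreed less closely than those of the pump genes, with a mean difference of 0.82 over the 4 arrays. It lay at 2.64 and 1.26 in mixture 1 and at -1.30 and -0.46 in mixture 2, on opposite sides of the middle, as were 11.5% of all probes. The difference between the mixtures was 2.83 (SE 0.557), with a limma adjusted p of 0.0732. BMP1, an astacin protease that trims procollagens, the collagenase MMP13 and the granule protease GZMB also lay on opposite sides in the mixtures. Their differences were -0.47, 1.11 and -1.12, with limma adjusted p-values of 0.458, 0.176 and 0.185. BMP1, MMP13 and GZMB, like HYAL3, had spots 1 log2 unit or more apart on at least 1 array. The spots stayed closer than that on every array for 4 of the 11 genes, beside 62.8% of all probes.

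CTSF, cathepsin F, is the other papain family cathepsin measured. It lay at 2.08 and -0.14 in mixture 1 and at -1.39 and -0.35 in mixture 2. Its replicates in mixture 1 were on opposite sides of the middle, and its mean of 0.97 (SE 0.503) did not pass (limma adjusted p 0.147). CTSF passed in mixture 1 without either array of mixture 2, for a count of 4 of 11 genes, and without replicate 2 of mixture 1, where MMP12 passed as well, for a count of 5.

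MMP12 and MMP13, the secreted metalloproteinases measured, lay at 0.52 (SE 0.399) and 0.40 (SE 0.308) in mixture 1, where both membrane-type members were negative. On the 2 arrays of mixture 1 MMP12 read 1.28 and -0.25, on opposite sides of the middle, and MMP13 read 0.76 and 0.04. Neither passed (limma adjusted p 0.315 and 0.320). In mixture 2 MMP12 lay at 0.64 and MMP13 at -0.72. The calcium-activated protease CAPN1 lay at 0.20 in mixture 1 and at -1.09 in mixture 2, bleomycin hydrolase, BLMH, at 0.20 and -0.30, and the cystatin CST7, an inhibitor of papain family proteases, at -0.05 and -0.23. In the mean of both mixtures 2 of the 11 genes passed, ATP6V1A and ATP6V1C1, a smaller share than the 38.7% of all probes. None of the 11 passed in limma in mixture 2 or between the mixtures, while 2 and 5 of them had an unadjusted p under 0.05, as did 226 and 275 of the 1152 probes.

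**Figure D5:**
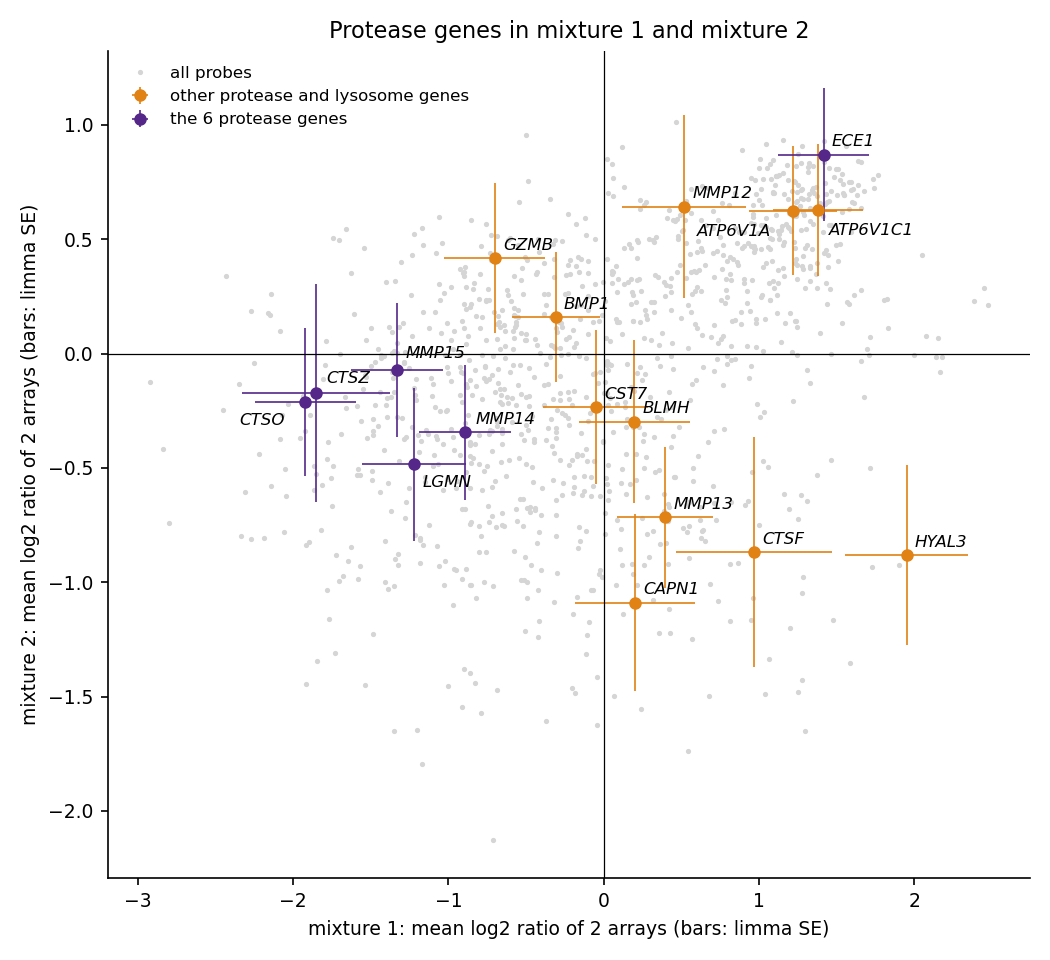
Mean log2 ratio of mixture 1 (horizontal axis) and of mixture 2 (vertical axis), from 2 arrays per mixture. The 6 protease genes are purple, 11 other protease and lysosome genes orange and all 1152 probes grey. Bars are limma standard errors, which rest on 1 spread per gene shared by both mixtures. CTSO, CTSZ, LGMN, MMP14 and MMP15 lie to the left and slightly below 0, while ECE1, ATP6V1A and ATP6V1C1 lie together at the upper right.

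For each protease gene the 2 named genes with the most similar values over the 4 arrays were taken by the smallest Euclidean distance. Nearest to CTSO were the sulfate transporter gene SLC26A2 (distance 0.543) and the membrane skeleton gene ADD3 (0.556), and nearest to CTSZ the Golgi gene BLZF1 (0.550) and the nuclear receptor gene NR2F1 (0.819). BLZF1 had a similar gap between the mixture 1 arrays as CTSZ, at -3.195 and -0.91, but its spots differed by 2.29 on the first of these arrays. Nearest to LGMN were the integrin gene ITGAV (0.329) and LRRC15 (0.366). MMP14 was nearest to the semaphorin gene SEMA3C (0.338) and ITGB3BP (0.406), and MMP15 to CAND2 (0.227), a regulator of cullin ligases, and the proteasome assembly gene PSMG1 (0.342). ECE1 was nearest to the basement membrane gene NID1 (0.223) and the spindle gene TACC3 (0.325). The mean spot differences of MMP15 (1.015), LGMN (0.671) and MMP14 (0.392) exceeded the distance to their nearest gene, so those neighbours are not resolved. The median distance to all named genes was 1.99 for MMP14, the lowest of the 6 medians, and 3.32 for CTSZ, the highest.

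Of the marker genes of other cell types, the macrophage gene CSF1R and the endothelial gene CDH5 were measured, and none of the fibroblast or epithelial markers was. CSF1R lay at 0.11 in mixture 1 and -0.57 in mixture 2, and CDH5 at 0.24 and -1.56. Ratios carry no level, so the identity of the cells could not be checked on markers.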

How the data were processed

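Total RNA of RT210B and of each unstable mixture was compared on 2 two-channel arrays per mixture, 4 in all, with the mixture and replicate number taken from the titles. The values deposited by the authors are log2 ratios between the channels for 2304 spots. Per the labels, replicate 2 of mixture 1 had a normalization factor of 3.8 and replicate 1 of mixture 2 had 1.169, with no word on what they scaled. For dyes, numerator, background correction and filters, the sources used here give nothing. No spot brightness was used here. The precision is limited by the number of arrays, 2 per mixture.

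Adjacent spots were averaged into 1152 probes and each array was centred on its median (-0.12, -0.22, -0.44 and -0.53). Paired spots correlated at r = 0.725 to 0.819 across probes. Genes were named from GEO's platform annotation: 350 probes had 1 symbol, 8 had several and 794 are unnamed here. limma 3.58.1 in R 4.3.3 (lmFit, eBayes) fitted 1 mean per mixture over the 4 arrays, with Benjamini-Hochberg adjustment over all probes and a limit of 0.05, and was tested on simulated data. RT210B was treated as 1 control sample, so its own spread is left out. The genes and gene lists were chosen with earlier results of these data known. Named genes were the 6 proteases, every measured gene of the lists, and the 2 named genes nearest to each protease.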

Additional observations from a re-analysis of the deposited data

How the results depend on the processing

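Of 108 values of the 6 protease genes under settings other than a left-out array or the block, 77 stayed within 1 SD of the replicates and 31 moved by more. The SDs behind this rest on 2 arrays per mixture and ran from 0.005 (MMP15, mixture 2) to 1.595 (CTSZ, mixture 1). The split therefore depends on how close the replicates of a gene were as well as on the size of the move. Over all settings 3 values changed side: the ECE1 difference between mixtures with scaled arrays (-0.16), CTSO in mixture 2 without its replicate 2 (0.09) and MMP15 in mixture 2 on its second spot (0.23). None of the 3 was past the limit. With arrays scaled to 1 spread, 231 probes passed in mixture 1 against 497, and 262 in mixture 2 against 0. Without centring 206 probes passed in mixture 2, all negative, and 47 between the mixtures against 0. The split of positive and negative probes moved from 281 and 216 to 232 and 292 in mixture 1, and from 250 and 196 to 124 and 434 in the mean of both mixtures. A fit of mixture 2 by itself passed 113 probes. With 1 array left out, so that a mixture rests on a lone array assumed to vary like the others, the counts were 390 to 486 in mixture 1, 0 to 113 in mixture 2, 219 (without replicate 1 of mixture 2) to 505 in the mean and 0 to 213 between the mixtures. The count of other protease and lysosome genes in mixture 1 was then 3 to 5 of 11. The cause of these changes was not tested.

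With the replicate number as a replicate block, 36 probes passed between the mixtures against 0. In mixture 1 and in the mean, 5 of the 6 protease genes, without MMP14, were past the limit, as were 471 and 428 of 1152 probes. Same-numbered arrays share a number in their titles, and their deviations correlated at r = -0.098 across probes. Whether these arrays share anything more was not tested, since 1 correlation over all probes cannot decide it. No intensities were used here, so alternatives of background correction and of a filter on dim probes were not run.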
